A study of Mus musculus with 12 samples.

Results

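The genes described here encode the subunits of the oxidative phosphorylation system, complexes I to V of the mitochondrial inner membrane together with cytochrome c. They were chosen by symbol from a gene count table of 55487 mouse Ensembl identifiers. The name pattern matched 122 identifiers, and 21 of these were left out as 8 assembly factors, 9 pseudogene symbols and 4 further annotated pseudogenes, which left 101 members. Of the 101 members, 88 are encoded in the nucleus and 13 in the mitochondrial DNA. Complex I held 43 of them, complex II 4, complex III 10, complex IV 23, complex V 20 and cytochrome c 1, with Ndufa4 and its paralog Ndufa4l2 placed in complex IV. Ndufb1-ps, a locus that carries 9205 tags over all libraries, fell outside by its symbol, and Atpif1 and Usmg5, an inhibitor and a small subunit of the ATP synthase, fell outside the pattern.

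All libraries came from im_TEC, mouse tubular epithelial cells conditionally immortalised with the SV40 large T antigen. They were grown at 33 °C in medium holding interferon γ at 10 ng/ml, and kept at 37 °C without it for 7 days before use. The 4 groups of 3 libraries were cells labelled Nnmt-OE given TGFβ, cells labelled Nnmt-OE without TGFβ, mock-transduced cells given TGFβ and mock-transduced cells without TGFβ. Nnmt-OE stands for an expression construct of Nnmt, the nicotinamide N-methyltransferase, and the label of the genotype itself reads Nmt-OE. TGFβ, the cytokine most closely tied to fibrosis of the kidney, was given at 10 ng/ml for 48 h. All groups shared the one conditionally immortalised line, so the comparisons are within a single culture model, and nothing says that the 3 libraries of a group came from separate cultures, so a p-value measures the spread between these libraries, which may be technical.

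Complex I takes electrons from NADH and complex II takes them from succinate, and both pass them to ubiquinone. Complex III moves them to cytochrome c, complex IV hands them to oxygen, and the proton gradient that complexes I, III and IV build drives the ATP synthase, complex V. Proximal tubule cells of the kidney rely on this system for the energy of solute reabsorption. Complexes I, III, IV and V are mosaics of both genomes: core membrane subunits come from mitochondrial DNA and most other subunits from nuclear genes, while complex II and cytochrome c are wholly nuclear.

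Not every member had counts, and the sequences at the transcript ends are given first. The libraries were 3′ tag libraries, which yield about 1 tag per transcript near its end, and the table's row for reads that map to more than one place was 0 in every library. The mouse nuclear genome holds pieces of mitochondrial DNA, and several of them match mitochondrial transcripts base for base. The last 70 bases of 4 mitochondrial transcripts are shown in GRCm38, 5′ to 3′, with the ends of 3 annotated nuclear pseudogene copies. They show the contrast between transcript ends with annotated copies and transcript ends without. Capitals mark a base of the copy that differs from the mitochondrial transcript.
mt-Co2, chrM:7627-7696, + strand: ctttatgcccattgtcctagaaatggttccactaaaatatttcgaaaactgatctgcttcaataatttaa
Gm28661, within chr1:24614885-24615565, − strand: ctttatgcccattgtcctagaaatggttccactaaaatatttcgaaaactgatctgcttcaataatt
Gm13341, within chr2:22587291-22587962, − strand: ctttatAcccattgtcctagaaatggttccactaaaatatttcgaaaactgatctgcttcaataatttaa
mt-Co3, chrM:9321-9390, + strand: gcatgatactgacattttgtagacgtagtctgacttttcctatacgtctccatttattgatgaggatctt
Gm28437, within chr1:24613189-24613971, − strand: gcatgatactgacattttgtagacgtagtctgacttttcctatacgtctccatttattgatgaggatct
mt-Nd4, chrM:11475-11544, + strand: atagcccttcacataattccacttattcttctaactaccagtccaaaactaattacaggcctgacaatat
mt-Cytb, chrM:15219-15288, + strand: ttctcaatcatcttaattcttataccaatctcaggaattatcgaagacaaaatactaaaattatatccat

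The end of Gm28661 matched that of mt-Co2 over 67 bases with 0 mismatches, and Gm28437 matched mt-Co3 over 69 bases with 0 mismatches, whereas Gm13341 differed from mt-Co2 at 1 of 70 bases. Both mt-Co2 and mt-Co3 encode core subunits of cytochrome c oxidase, complex IV. Over all 12 libraries mt-Co2 had 1 count and mt-Co3 had 0. The transcripts whose ends had no annotated copy, mt-Nd4 of complex I and mt-Cytb of complex III, had 665553 and 422626 counts.

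The same contrast held over most of the 13 mitochondrial members. As a measure of copying, the share of 50-base words in the last 400 bases that occur unchanged in another annotated transcript was computed. Of these members 6 had under 10 counts in all, and 5 of them had over 90% of these words copied: mt-Co2 at 100%, mt-Co3 at 99.7%, mt-Atp6 at 99.1%, mt-Nd4l at 98.8% and mt-Nd3 at 98%. These 5 encode 2 subunits of complex IV, 1 of complex V and 2 of complex I. A copy of each of the 5, with 1 of mt-Co1, lies in a run of 6 pseudogenes at chr1:24612407-24616197, which drew 18 counts in all. Copies also lie elsewhere: Gm13341 on chromosome 2, the copy of mt-Co2 shown above, drew 353 counts, against 1 for mt-Co2.

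By this measure mt-Co1 and mt-Atp8 stood off the pattern. The first had 53095 counts although 100% of its end was copied, with 51.1% copied over its whole length. The second had 0 counts and 0% copied. It lies at chrM:7766-7969, between the ends of mt-Co2 and mt-Atp6, whose copies Gm28661 and Gm10925 lie in the chromosome 1 run above. Only annotated transcripts were searched, so 0% does not show that mt-Atp8 has no copy. The remaining 5 members, mt-Nd1, mt-Nd2, mt-Nd5, mt-Nd6 and mt-Cytb, had 339406, 392559, 88435, 1793 and 422626 counts with at most 22.8% of the end copied, and the counts of mt-Nd4 are given above. The end of mt-Nd4 had 0% copied, though 62.2% was copied over its whole length. Whether shared reads were dropped for the low members was not tested, and a count near 0 here is not a level of the transcript.

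**Figure D1:**
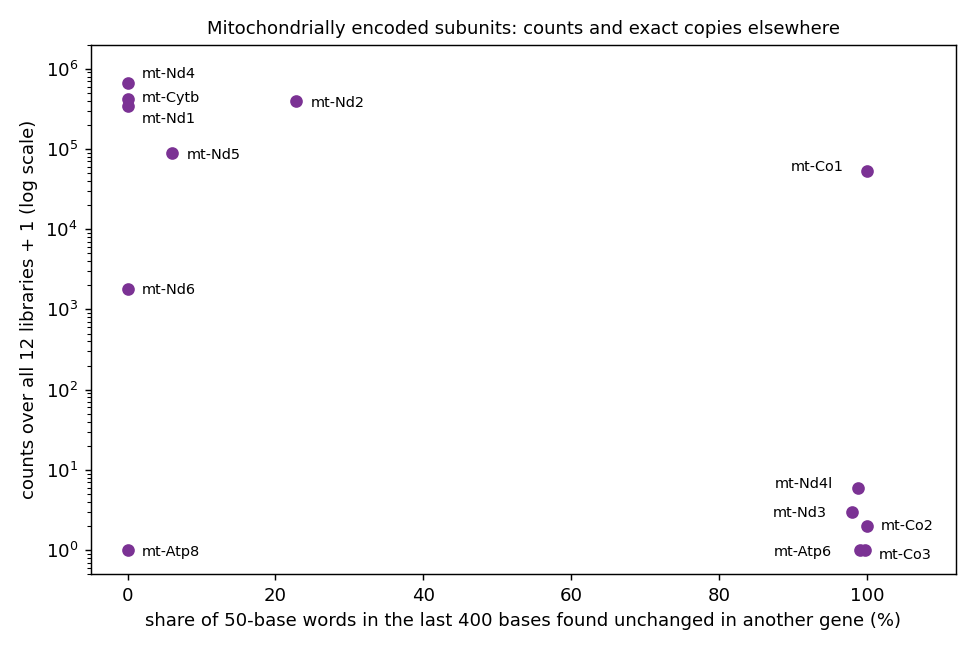
Each point is 1 of the 13 mitochondrially encoded subunit genes. The horizontal axis gives the share of 50-base words in the last 400 bases found unchanged in another annotated transcript (%). The vertical axis gives the counts over all 12 libraries plus 1 on a log scale. Of the 6 genes with under 10 counts, 5 lie beyond 90%, and mt-Co1 and mt-Atp8 stand off this pattern. Copies outside annotated transcripts were not searched.

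Copies also touched some nuclear members. Of the 83 nuclear members with counts, 57 had 0% of the end copied in another transcript and 9 had at least 25%. The most copied were Atp5l (78.6%), Ndufs3 (64.7%), Atp5h (55.8%), Cox7c (52.4%) and Ndufs5 (47%), and the 9 also held Atp5o, Uqcrb, Atp5g2 and Cox6c. Ndufs5, an accessory subunit of complex I, had 188 counts, against 1207 for its copy BC002163. Cox6c of complex IV had 25719 counts and its processed pseudogene Cox6c2 had 5795. The levels of these 9 members are uncertain for this reason, and those of Uqcrc2, Ndufb6, Cox5a and Ndufb2 also because an opposite-strand gene overlaps at least 25% of the end and the strand setting of the counting is not given. For Ndufb2 this end is that of a longest transcript of 4371 bases, and whether its tags fall there was not tested.

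The libraries held 4733846 to 7247413 tags assigned to genes, and after a filter on low counts 12897 genes were tested and 42590 were not. Of the members, 87 passed the filter, 80 nuclear and 7 mitochondrial, and 14 did not. These 14 were the 6 mitochondrial members with under 10 counts, the isoforms Cox4i2, Cox6a2, Cox6b2, Cox7b2, Cox8b, Cox8c and Ndufa4l2, and an identifier of Atp5o that had 0 counts beside the counted one. Nnmt itself was not called higher in the libraries labelled Nnmt-OE. It had 33.9, 22.5 and 26.3 CPM (counts scaled to a common library size) in labelled Nnmt-OE with TGFβ, 24.5, 28.5 and 22.9 CPM in labelled Nnmt-OE, 33.3, 29.7 and 27.9 CPM in mock with TGFβ, and 24.7, 17.8 and 18.3 CPM in mock. Its log2 fold change for labelled Nnmt-OE against mock was −0.14 ± 0.21 with TGFβ (SE; edgeR adjusted p = 0.998) and 0.32 ± 0.22 without it (edgeR adjusted p = 0.897). A tag near the 3′ end of the native transcript need not count the construct, so this checks nothing about the construct, and the groups are called by their labels. The library codes of the 4 groups do not interleave, so handling cannot be told apart from construct or TGFβ. Of 12 tubular markers 7 passed the filter, among them Pax8 at 213.9 to 273.4 CPM and Pax2 at 252.4 to 328.5 CPM, while Cdh1 and Epcam had 0 counts. The markers of endothelium summed to 0 CPM, those of fibroblasts to 1.47 to 14.5 CPM, those of leukocytes to 55.2 to 96.3 CPM and those of podocytes to 122.3 to 166.7 CPM, with Col3a1, Lum and Cd3e at 0. The fibroblast sum was 9.42 to 14.5 CPM in labelled Nnmt-OE with TGFβ, 1.47 to 8.04 CPM in labelled Nnmt-OE, 6.89 to 10.9 CPM in mock with TGFβ and 3.2 to 5.51 CPM in mock. This sum was nearly all Col1a1, which encodes a chain of collagen I and gave 9.17 to 13.5, 1.03 to 5.54, 6.89 to 9.79 and 1.42 to 5.51 CPM in the same groups. Pdgfra, Pdgfrb and Dcn each had at most 2.5 CPM, so the group difference of the sum is that of 1 gene.

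The nuclear members together made up a steady share of the tags. Their sum was 12770.4 ± 367 CPM in labelled Nnmt-OE with TGFβ, 13740.1 ± 394 CPM in labelled Nnmt-OE, 12946 ± 557 CPM in mock with TGFβ and 13297 ± 549 CPM in mock (mean ± SD, n = 3 each). All 12 libraries lay between 12321 and 14112 CPM, and the group ranges overlapped except that the 3 labelled Nnmt-OE libraries with TGFβ, at 12549 to 13194 CPM, lay below the 3 labelled Nnmt-OE libraries without it, at 13327 to 14112 CPM. The sum over nuclear complex I was 4099 ± 85.8, 4379 ± 113, 4206 ± 261 and 4243 ± 156 CPM in labelled Nnmt-OE with TGFβ, labelled Nnmt-OE, mock with TGFβ and mock. For nuclear complex V it was 3819 ± 115, 4148 ± 151, 3942 ± 197 and 4016 ± 151 CPM in the same groups. Per-sample tag counts cannot tell fewer transcripts per cell from fewer cells of a type.

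Complex II, which is also the succinate dehydrogenase of the citric acid cycle, summed to 449.9 ± 25.6, 473 ± 43.8, 449.9 ± 28.9 and 465 ± 43.3 CPM in labelled Nnmt-OE with TGFβ, labelled Nnmt-OE, mock with TGFβ and mock. Nuclear complex III summed to 1211 ± 54.7, 1314 ± 46.9, 1267 ± 36.1 and 1317 ± 45.5 CPM, and nuclear complex IV to 3167 ± 147, 3406 ± 154, 3061 ± 81.5 and 3232 ± 261 CPM, in the same order of groups. Cycs, the somatic cytochrome c, stood at 25.2 ± 4.67, 20 ± 0.592, 20.7 ± 3.96 and 25.4 ± 5.8 CPM in that order.

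**Figure D2:**
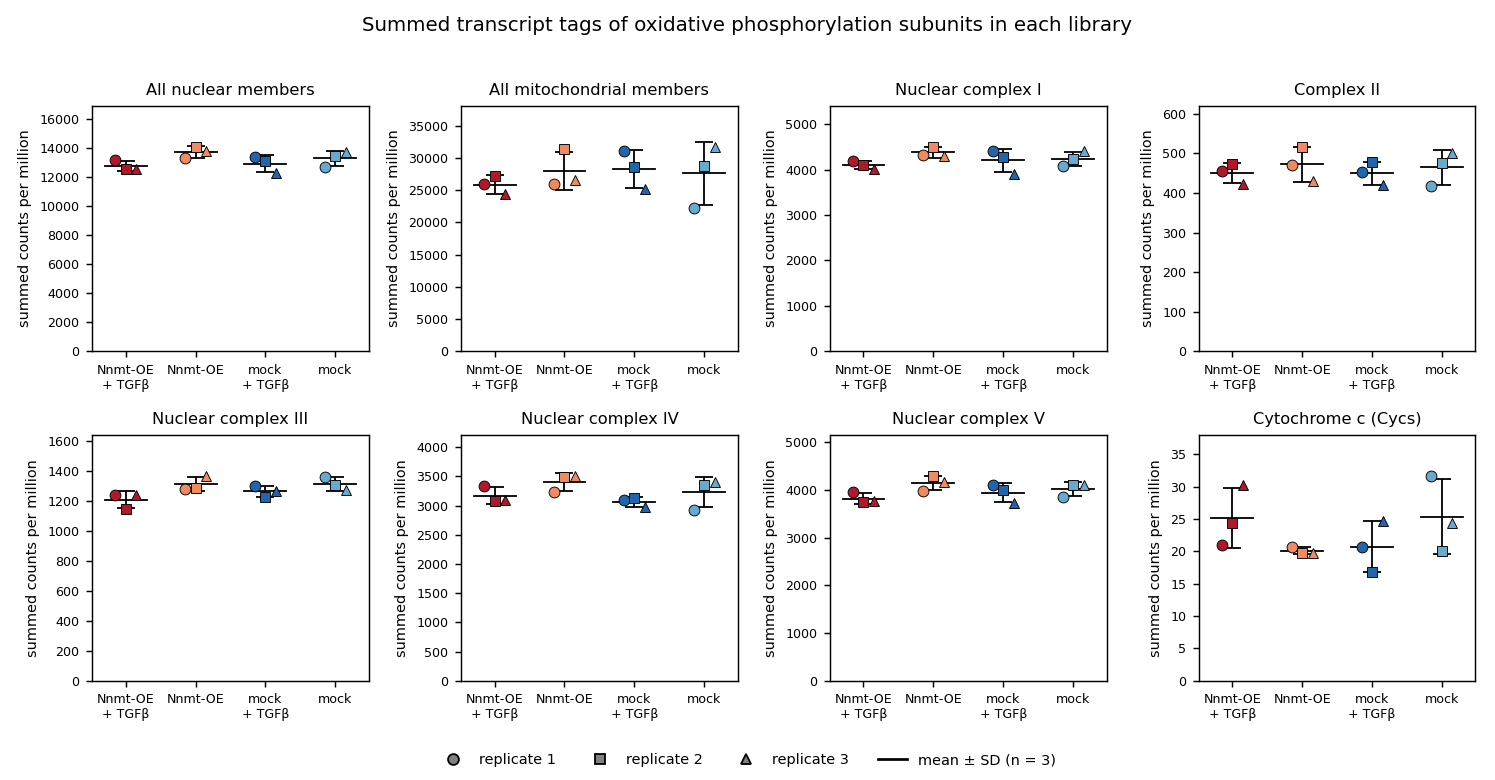
Summed level (CPM) of the nuclear members, the mitochondrial members and each nuclear class in the 12 libraries, with a marker per replicate and bars for the mean ± SD of 3 libraries. The nuclear sum stays between 12321 and 14112 CPM, and the mitochondrial sum spreads from 22287 CPM in mock replicate 1 to 31776 CPM in mock replicate 3.

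The mitochondrial members summed to 25886 ± 1427 CPM in labelled Nnmt-OE with TGFβ, 27990.3 ± 3001 CPM in labelled Nnmt-OE, 28266 ± 2930 CPM in mock with TGFβ and 27611 ± 4850 CPM in mock. The ratio of mitochondrial to nuclear tags was 2.03 ± 0.124, 2.03 ± 0.168, 2.18 ± 0.136 and 2.07 ± 0.284 in the same groups, with 1.76 as the lowest and 2.32 as the highest library. The group ranges of this ratio overlapped, and since 6 mitochondrial members are hardly counted, the ratio is one of countable tags and not of transcripts.

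One library stood apart in some mitochondrial transcripts and not in others. The subunit mt-Nd2 of the proton-pumping arm of complex I had 2128 CPM in mock replicate 1, against 4883 to 6442 CPM in the other 11 libraries, and mt-Nd5 of the same arm had 559.7 CPM, against 1065 to 1473 CPM. The transcript mt-Nd6, read from the opposite strand of the mitochondrial DNA, had 8.35 CPM, against 17.9 to 34.8 CPM. In the same library mt-Nd1 had 4539 CPM, within the 4492 to 5158 CPM of the others, and mt-Nd4 had 9417 CPM, within their 7365 to 11625 CPM. The share of mt-Nd4 among all mitochondrial tags was 42.3% there, and 30 to 37% in the other libraries. Over the 87 tested members, mock replicate 1 was the lowest of the 12 libraries for 21 and the highest for 15. Among nuclear members it was lowest for Cox8a (319.9 CPM, against 392.8 to 601.4 CPM) and highest for Atp5j2, a membrane subunit of complex V (387.1 CPM, against 251.5 to 307.2 CPM). Every comparison with mock is given for this reason with and without this library where a call turns on it.

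**Figure D3:**
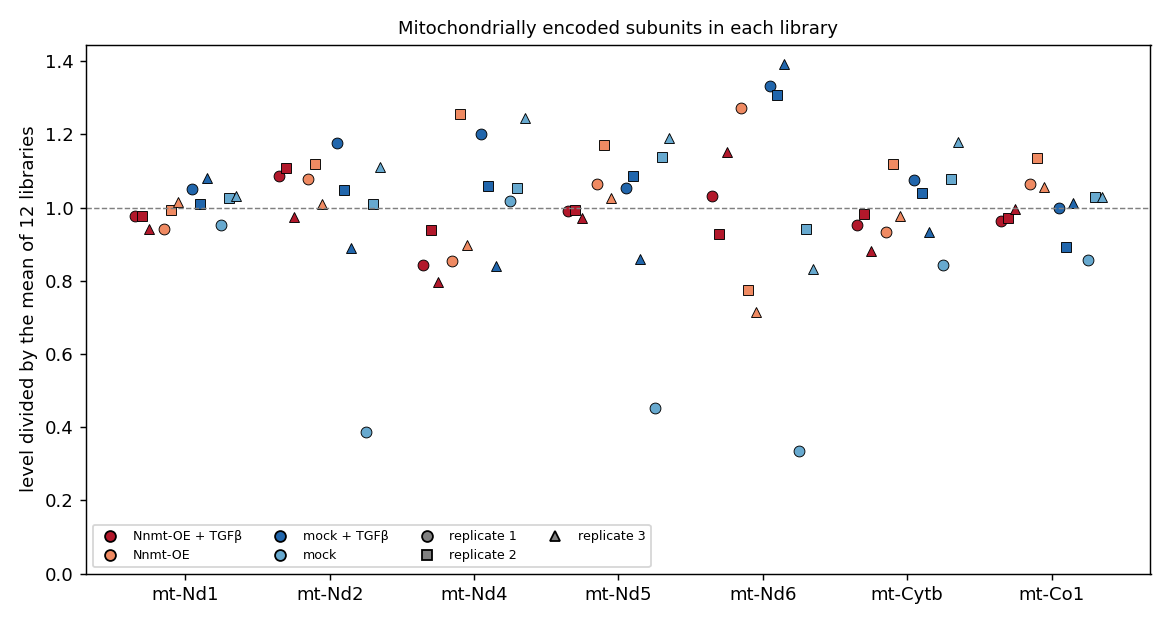
Level of the 7 countable mitochondrial members in each library, divided by the mean of 12 libraries, coloured by group with a marker per replicate. The point for mock replicate 1 lies far below the others for mt-Nd2, mt-Nd5 and mt-Nd6, and among them for mt-Nd1 and mt-Nd4.

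The steadiest tested member was mt-Nd1, with an SD of log2 CPM within groups of 0.05, and the most variable was Ndufs5, which had 1.1 to 5.43 CPM. The median SD within groups was 0.16 over the tested members and 0.27 over all genes tested, sets that were not matched for count level. Levels of different genes are CPM of tags, at about 1 tag per transcript and not divided by length. On that scale the highest nuclear members were Ndufb8 and Ndufa2 in complex I (means of 287.6 and 269.2 CPM over 12 libraries), Sdhb and Sdha in complex II (148 and 126.8 CPM), Uqcrq and Uqcrh in complex III (271.6 and 269.8 CPM), Cox6a1 and Cox8a in complex IV (614.2 and 481.9 CPM) and Atp5g3 and Atp5a1 in complex V (1167 and 485.8 CPM). Atp5a1 encodes the α subunit of the catalytic head and Atp5g3 a c subunit of the rotor ring.

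Tissue-restricted isoforms gave few or no tags. Atp5g1, Atp5g2 and Atp5g3 encode the same mature c subunit, and Atp5g3 gave 97.6 to 98.7% of their tags in all libraries. That share rests on uncertain levels, since 29.6% of the end of Atp5g2 and 14.5% of that of Atp5g1 were copied in other transcripts, against 0% for Atp5g3. The end searched is that of the longest coding transcript, which had 4715 bases for Atp5g1, 753 for Atp5g2 and 723 for Atp5g3. Whether the tags of Atp5g1 fall at that end was not tested. Cox7a1, the heart and muscle form of a complex IV subunit, gave 0.393 to 1.81% of the tags of Cox7a1 and Cox7a2. Cox6a2, the muscle form of Cox6a, gave at most 0.272%. The lung form Cox4i2, the testis forms Cox7b2 and Cox8c, and the muscle form Cox8b had 0 counts in every library, which allows up to 0.636 CPM in the shallowest of them when 3 counts are taken as the limit, for counting error only. Cyct, the testis cytochrome c, also had 0 counts, and Ndufa4l2, the hypoxia-inducible paralog of Ndufa4, had 0 to 1.25 CPM, against 117.6 to 159.6 CPM for Ndufa4.

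TGFβ was associated with lower levels of 3 complex I members when its difference was averaged over the constructs, 6 libraries with TGFβ and 6 without. All 3 are accessory subunits: Ndufb8 and Ndufa11 sit in the membrane arm and Ndufv3 belongs to the NADH-oxidising tip. Ndufb8 fell by 0.25 on the log2 scale (fold change 0.841), Ndufa11 fell by 0.28 (0.825) and Ndufv3 fell by 0.35 (0.783). These were 3 calls among 87 members, beside 5.08% of all 12897 genes called in this comparison, so calls were not more frequent among the members. No member was called higher. DESeq2 and limma-voom called 4 members each, these 3 with Uqcrh by DESeq2 and with mt-Nd6, higher with TGFβ, by limma-voom.

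Ndufb8 had 255.3, 276.4 and 259.8 CPM in labelled Nnmt-OE with TGFβ, against 301.1, 310.8 and 317 CPM in labelled Nnmt-OE. In mock cells it had 254.2, 281.5 and 249.4 CPM with TGFβ, against 345.5, 305 and 295.5 CPM without. All 6 libraries with TGFβ lay below all 6 without. The averaged log2 fold change was −0.25 ± 0.06 (SE), with an adjusted p of 0.013 in edgeR's quasi-likelihood test. It kept the call in each of the 12 fits with 1 library left out, and lost it in the fit without mock replicate 1, mock with TGFβ replicate 3 and labelled Nnmt-OE with TGFβ replicate 3 together, at −0.19 and an adjusted p of 0.0662 (edgeR).

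Ndufa11 had 105.4, 92.4 and 106.1 CPM in labelled Nnmt-OE with TGFβ, against 132.4, 125.3 and 129.5 CPM in labelled Nnmt-OE. In mock cells it had 110.1, 122.8 and 119 CPM with TGFβ, against 141.6, 125.1 and 138.6 CPM without. Again no library with TGFβ reached one without. The averaged log2 fold change was −0.28 ± 0.08 (SE; edgeR adjusted p = 0.0247). The call was lost when 1 of 5 libraries was left out: labelled Nnmt-OE with TGFβ replicate 2 (adjusted p = 0.0924), labelled Nnmt-OE replicate 1 (0.0671) or 3 (0.0571), mock with TGFβ replicate 1 (0.0808) or mock replicate 3 (0.0569), all by edgeR.

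Ndufv3 had 44.6, 50.2 and 55 CPM in labelled Nnmt-OE with TGFβ, against 61.3, 71.7 and 75.2 CPM in labelled Nnmt-OE. In mock cells it had 60, 70.2 and 52.9 CPM with TGFβ, against 63.2, 68.9 and 82.4 CPM without, and here the groups overlapped. The averaged log2 fold change was −0.35 ± 0.10 (SE; edgeR adjusted p = 0.037). It lost the call without labelled Nnmt-OE with TGFβ replicate 1 (adjusted p = 0.122) or 2 (0.0719), labelled Nnmt-OE replicate 2 (0.0735) or 3 (0.116), mock with TGFβ replicate 1 (0.0788) or 3 (0.094), or mock replicate 2 (0.0515) or 3 (0.135), all by edgeR. None of the 3 genes had any 50-base word of its last 400 bases in another annotated transcript. Without mock replicate 1 the averaged comparison called 6 members, these 3 with Cox8a, mt-Nd5 and Ndufa1.

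**Figure D4:**
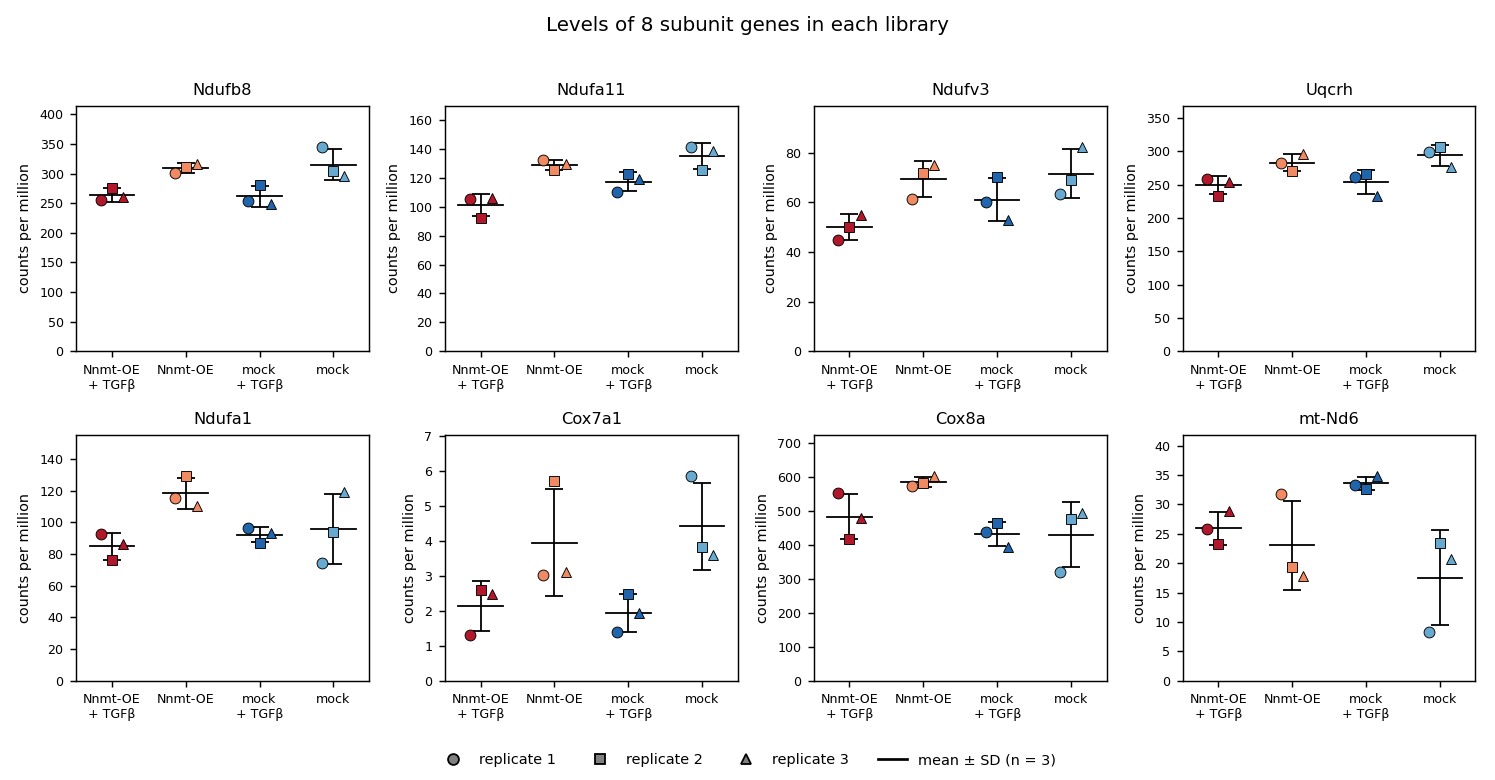
Level (CPM) of 8 members in the 12 libraries, with a marker per replicate and bars for the mean ± SD of 3 libraries. For Ndufb8, Ndufa11, Uqcrh and Cox7a1 the 6 libraries with TGFβ lie below the 6 without, and for mt-Nd6 mock replicate 1 lies lowest at 8.35 CPM.

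The 300 bases around the RefSeq start of each of the 3 called genes, 250 before and 50 after it, are shown because these genes were called in the same direction (RefSeq, GRCm38.p6, 5′ to 3′ on the gene's strand). Capitals mark matches to the 7-base cores searched on both strands, GCATGCG for NRF1, ATGGCGG for YY1, CCGGAAG for ETS factors such as GABP and AAGGTCA for the ERR receptors, factors known as regulators of nuclear respiratory genes.
Ndufb8, chr19:44555393-44555692, − strand: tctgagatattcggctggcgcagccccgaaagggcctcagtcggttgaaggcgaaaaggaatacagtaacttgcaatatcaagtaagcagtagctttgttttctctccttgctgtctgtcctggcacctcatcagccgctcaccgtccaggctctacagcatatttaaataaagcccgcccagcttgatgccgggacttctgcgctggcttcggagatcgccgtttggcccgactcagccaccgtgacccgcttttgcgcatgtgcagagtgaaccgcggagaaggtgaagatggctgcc
Ndufa11, chr17:56717512-56717811, + strand: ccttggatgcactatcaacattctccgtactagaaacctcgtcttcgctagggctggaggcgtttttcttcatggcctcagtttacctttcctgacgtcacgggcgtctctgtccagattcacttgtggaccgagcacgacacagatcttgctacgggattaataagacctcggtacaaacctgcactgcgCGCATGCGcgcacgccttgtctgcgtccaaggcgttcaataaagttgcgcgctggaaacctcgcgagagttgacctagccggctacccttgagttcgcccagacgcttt
Ndufv3, chr17:31519865-31520164, + strand: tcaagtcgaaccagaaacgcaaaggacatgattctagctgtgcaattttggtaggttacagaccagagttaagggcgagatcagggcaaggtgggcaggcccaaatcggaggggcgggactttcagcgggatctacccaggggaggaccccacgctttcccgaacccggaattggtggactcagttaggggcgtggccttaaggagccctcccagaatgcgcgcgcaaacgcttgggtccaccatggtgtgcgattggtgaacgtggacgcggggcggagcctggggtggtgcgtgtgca

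Among the 3 windows, Ndufa11 alone held a core, with 2 overlapping matches to that of NRF1, 1 on each strand. A promoter was found for 65 of the 80 tested nuclear members. The NRF1 core stood in 18.5% of these members' promoters, against 4.01% of 27025 genes with a promoter in the table. For the YY1 core the shares were 15.4% and 4.69%, for the ETS core 24.6% and 9.93%, and for the ERR core 12.3% and 5.38%. These are letters in a window, not sites shown to be bound.

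Other members did not pass the threshold. Averaged over constructs, mt-Nd6 had a log2 fold change of 0.56 ± 0.19 (SE; edgeR adjusted p = 0.0758), with its levels given under mock cells. Uqcrh, the hinge protein of complex III, known to help cytochrome c bind, had 258.5, 233.3 and 254.6 CPM in labelled Nnmt-OE with TGFβ, against 282.5, 269.8 and 295.7 CPM in labelled Nnmt-OE. In mock cells it had 262, 266.6 and 232.8 CPM with TGFβ, against 298.6, 306.9 and 275.8 CPM without, so that the 6 libraries with TGFβ lay below the 6 without. Its averaged log2 fold change was −0.20 ± 0.07 (SE; edgeR adjusted p = 0.0691). Cox7a1, the muscle isoform named above, had 1.32 to 2.6 CPM in the 6 libraries with TGFβ, against 3.04 to 5.86 CPM in the 6 without. Its averaged log2 fold change was −1.04 ± 0.47 (SE; edgeR adjusted p = 0.245), on 8 to 39 counts per library. With Ndufb8 and Ndufa11, 4 of 87 members separated the treatments without overlap, near the 3.09% of all genes tested that did.

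The size of the differences can be bounded for most members. For TGFβ averaged over constructs, 79 of 87 members had a 95% confidence interval that lay within 1.5-fold in both directions, against 58.1% of all genes tested. These shares were not matched for count level, on which the width of an interval depends. The members' median log2 fold change was −0.06, with 66 of 87 negative, while over all genes tested the median was −0.005 with 50.8% negative. At an unadjusted p below 0.05 there were 1 higher and 10 lower members, 12.6% of the 87, beside 16.6% of all genes tested.

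By complex, the 3 called members were all among the 36 nuclear members of complex I, whose median averaged log2 fold change was −0.03, with 23 of 36 negative. In complex II 4 of 4 members were negative with a median of −0.06, in nuclear complex III 8 of 9 with a median of −0.08, in nuclear complex IV 12 of 13 with a median of −0.09 and in nuclear complex V 15 of 17 with a median of −0.06. None of the members in these 4 classes was called. The 7 mitochondrial members had a median of −0.02, with 4 of 7 negative. Members of one complex share their libraries, so these counts describe the same 12 samples. The summed tubular markers were also lower with TGFβ, without overlap, at 1539 to 1693 CPM in labelled Nnmt-OE with TGFβ, against 2015 to 2059 CPM in labelled Nnmt-OE, and at 1500 to 1533 CPM in mock with TGFβ, against 1700 to 2004 CPM in mock, and the part of this in the members' values was not tested.

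Within the cells labelled Nnmt-OE alone, TGFβ gave 0 called members with edgeR or DESeq2 and 1 with limma-voom, while 1.4% of all genes were called (edgeR). These 180 genes became 305 without mock replicate 1, and 104, 99, 104, 109 and 97 without labelled Nnmt-OE with TGFβ replicate 1, 2 or 3 or labelled Nnmt-OE replicate 1 or 3. At an unadjusted p below 0.05 there were 9 members, all lower, beside 11.1% of all genes tested, and 68 of 87 members had a negative log2 fold change. Ndufa1, a small membrane-arm subunit of complex I encoded on the X chromosome, came closest. It had 92.7, 76 and 86.1 CPM in labelled Nnmt-OE with TGFβ, against 115.4, 129.1 and 110.3 CPM in labelled Nnmt-OE, without overlap. Its log2 fold change was −0.48 ± 0.13 (SE; edgeR adjusted p = 0.0589). The adjusted p was 0.0497 without mock with TGFβ replicate 3, 0.0157 without mock replicate 1 and 0.0359 without mock replicate 3, libraries that enter this comparison only through the shared spread and scaling, and over 22 alternatives it ran from 0.011 to 0.293 (edgeR, limma-voom or DESeq2).

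Other members with low p-values in that comparison were Ndufv3 (log2 fold change −0.48 ± 0.15, edgeR adjusted p = 0.105) and Ndufa11 (−0.35 ± 0.11, edgeR adjusted p = 0.11). Uqcrc2, a core protein of complex III, had 86.6, 90.2 and 69.2 CPM with TGFβ, against 101.8, 106.6 and 102.2 CPM without, a log2 fold change of −0.33 ± 0.12 (edgeR adjusted p = 0.224). In the upward direction the smallest p-values belonged to Cox7c (0.32 ± 0.22), Cycs (0.33 ± 0.23) and Cyc1 (0.16 ± 0.13), none of which passed.

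Within mock cells alone, TGFβ gave 0 called members with edgeR and 1, mt-Nd6, with DESeq2 or limma-voom, while 1.43% of all genes were called (edgeR). These 184 genes became 115 without mock with TGFβ replicate 1 and 98 without replicate 2. At an unadjusted p below 0.05 there were 2 higher and 3 lower members, beside 11.9% of all genes tested, and 49 of 87 had a negative log2 fold change. The smallest p belonged to mt-Nd6, which had 33.3, 32.7 and 34.8 CPM in mock with TGFβ, against 8.35, 23.5 and 20.8 CPM in mock. Its log2 fold change was 0.94 ± 0.26 (SE; edgeR adjusted p = 0.0638). Without mock replicate 1, the library that stands apart in this transcript, it was 0.61 with an adjusted p of 0.322 (edgeR). The adjusted p was 0.0249 without mock replicate 2 and 0.0483 without labelled Nnmt-OE replicate 1 (edgeR). In labelled Nnmt-OE the corresponding levels of mt-Nd6 were 25.8, 23.2 and 28.8 CPM with TGFβ, against 31.8, 19.4 and 17.9 CPM without, which overlapped.

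Ndufb8 (−0.27 ± 0.09, edgeR adjusted p = 0.153) and Ndufb11 (−0.38 ± 0.17, edgeR adjusted p = 0.355), both of the membrane arm, and Uqcrh (−0.21 ± 0.09, edgeR adjusted p = 0.333) gave the lowest p-values among negative members in mock cells. Ndufa9 (0.33 ± 0.14, edgeR adjusted p = 0.282), an accessory subunit near the quinone site, gave the lowest among positive members after mt-Nd6. The nuclear median log2 fold change was −0.08 in labelled Nnmt-OE and −0.05 in mock, and the mitochondrial median was −0.10 in labelled Nnmt-OE and 0.06 in mock, where it was −0.09 without mock replicate 1.

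**Figure D5:**
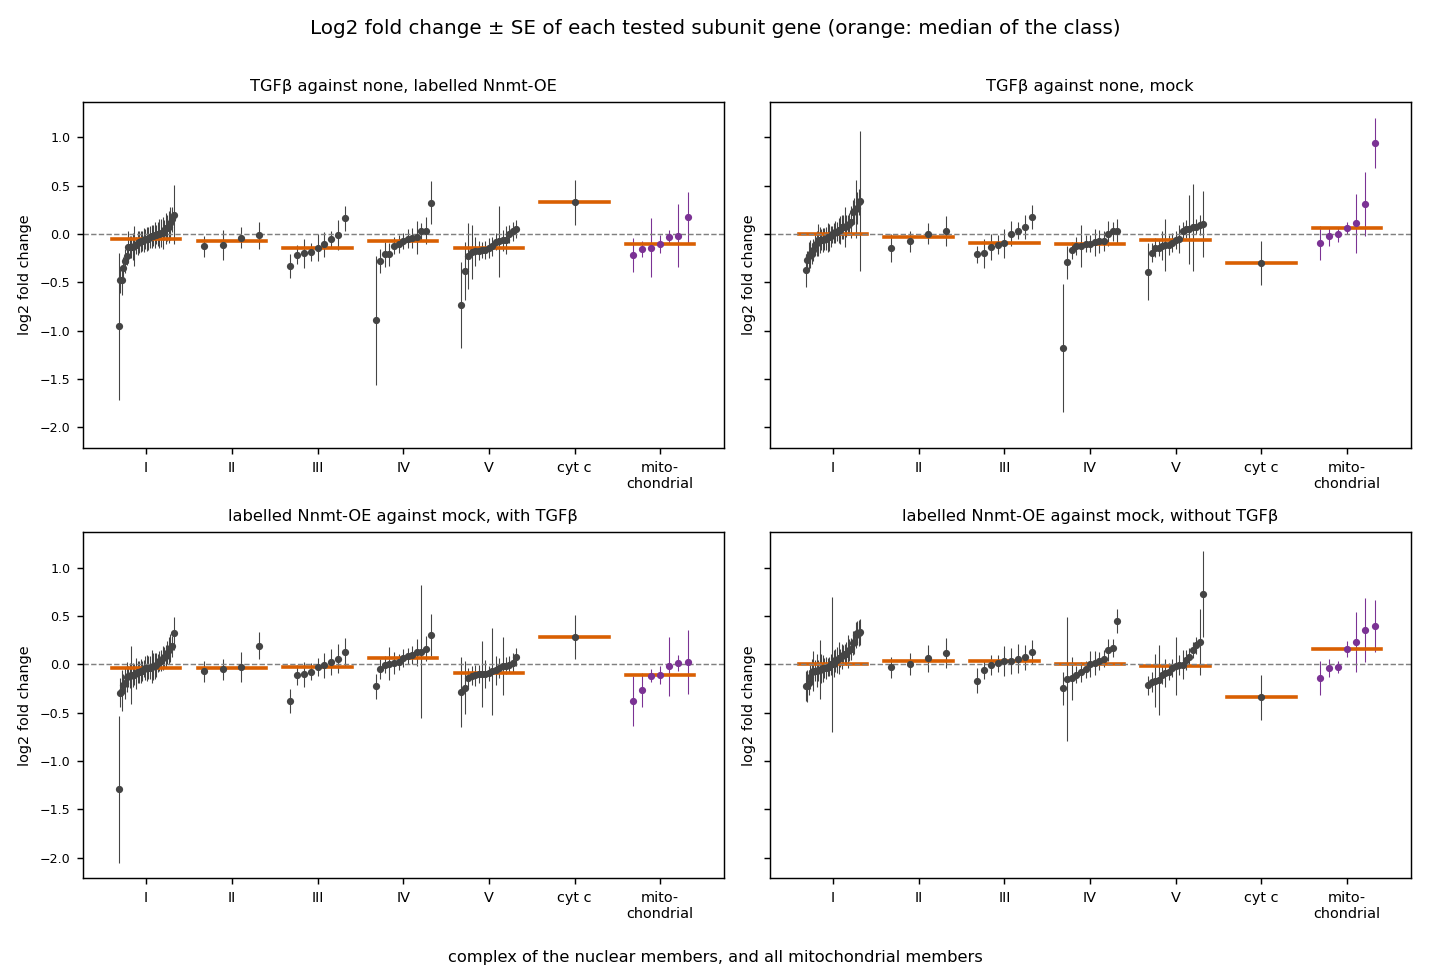
Log2 fold change ± SE of each of the 87 tested members in the 4 comparisons, nuclear members by complex and mitochondrial members together, with the median of each class as an orange bar. Most points lie within 0.5 of 0, and the widest bars belong to genes with few counts such as Cox7a1 and Ndufs5.

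The construct label was not associated with any called member. Without TGFβ, labelled Nnmt-OE against mock gave 0 of 87 members past the threshold (edgeR), beside 0.0388% of all genes, and 6 higher and 1 lower had an unadjusted p below 0.05, beside 5.84% of all genes tested. With DESeq2 and limma-voom the count was also 0. The interval of the difference lay within 1.5-fold for 70 of 87 members. The smallest p was that of Cox8a, the ubiquitous form of a small complex IV subunit, with 573.9, 580.2 and 601.4 CPM in labelled Nnmt-OE, against 319.9, 474.5 and 493.7 CPM in mock, without overlap. Its log2 fold change was 0.45 ± 0.13 (SE; edgeR adjusted p = 0.782), and 0.27 without mock replicate 1 (edgeR adjusted p = 1). Ndufa6 (0.32 ± 0.12) and Ndufs8 (0.33 ± 0.14), 1 accessory and 1 iron-sulfur core subunit of complex I, had the next smallest p-values among positive members, and Atp5d (−0.22 ± 0.10), Atp5j2 (−0.18 ± 0.10) and Ndufa8 (−0.19 ± 0.13) had the smallest p-values among negative members. The nuclear median log2 fold change was 0.002, and the mitochondrial median was 0.16, or −0.07 without mock replicate 1.

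With TGFβ in both arms, labelled Nnmt-OE against mock again gave 0 called members (edgeR; DESeq2 and limma-voom also 0), beside 0.0233% of all genes, and 0 higher and 1 lower had an unadjusted p below 0.05, beside 4.46% of all genes tested. The 1 member was Uqcrc2, with 86.6, 90.2 and 69.2 CPM in labelled Nnmt-OE with TGFβ, against 118.2, 96.3 and 106.6 CPM in mock with TGFβ, without overlap. Its log2 fold change was −0.38 ± 0.12 (SE; edgeR adjusted p = 0.892). The antisense partner that overlaps the whole counted end of Uqcrc2, Pdzd9, had 9 counts in all. Averaged over treatments, 0 members were called for the construct (edgeR; 0 with DESeq2 and limma-voom), beside 0.0698% of all genes, with 3 higher and 2 lower at an unadjusted p below 0.05, beside 6.23% of all genes tested. The largest of these averages with a low p was that of Cox8a at 0.31 ± 0.09 (SE; edgeR adjusted p = 0.449).

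Whether the TGFβ difference itself depended on the construct was tested as an interaction. Of the members 0 were called, and of all genes 0% (edgeR; DESeq2 and limma-voom also called 0 members), while 0 higher and 5 lower members had an unadjusted p below 0.05, beside 3.88% of all genes tested. Uqcrc2 had the smallest p among members, with a difference of −0.51 ± 0.17 on the log2 scale between the TGFβ difference in labelled Nnmt-OE and that in mock (SE; edgeR adjusted p = 0.999). The interval of the interaction lay within 1.5-fold for 56 of 87 members, and for the others the interval did not exclude a dependence of that size on the construct. All comparisons of one construct or one treatment share libraries with the others, and their values stand side by side here without a test of their likeness.

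Genes around the respiratory chain gave a mixed picture under TGFβ. Ppargc1a, which encodes the coactivator PGC-1α and is known as a driver of mitochondrial biogenesis, had 99.8, 87.7 and 90.5 CPM in labelled Nnmt-OE with TGFβ, against 168.5, 159.4 and 196.2 CPM in labelled Nnmt-OE, without overlap. In mock it had 113.9, 109.1 and 99.7 CPM with TGFβ, against 113.7, 177.5 and 151.8 CPM without. It fell by 0.91 on the log2 scale in labelled Nnmt-OE (edgeR adjusted p = 6.32e-06) and by 0.68 averaged over constructs (edgeR adjusted p = 8.19e-07). In mock cells the log2 fold change was −0.45 ± 0.13 (SE; edgeR adjusted p = 0.052), and without mock replicate 1 it was −0.61 (edgeR adjusted p = 0.00148). Without mock replicate 2 the value in mock cells was −0.30 (edgeR adjusted p = 0.373). Without any other single library the adjusted p in mock cells ran from 0.0529 to 0.17 (edgeR). Of 21 genes of mitochondrial biogenesis and mitochondrial DNA expression, Ppargc1a was the 1 called lower in the averaged comparison, with 0 called higher. The counts of called genes in this and the following lists stand beside the 5.08% of all genes called in that comparison, and 1 call in 21 genes is near that share.

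Idh2, the mitochondrial isocitrate dehydrogenase linked to NADP, was called lower on average (−0.27 ± 0.07, edgeR adjusted p = 0.0135). Idh2 lost the call without labelled Nnmt-OE with TGFβ replicate 2 (edgeR adjusted p = 0.0648) or mock with TGFβ replicate 2 (0.0637). Of 48 tested assembly factors 1 was called lower, Higd1a at −0.69 ± 0.21 (edgeR adjusted p = 0.0483), a protein known for a role in complex IV and supercomplex assembly. It lost the call without labelled Nnmt-OE with TGFβ replicate 1 or 3, labelled Nnmt-OE replicate 2 or 3, mock with TGFβ replicate 1 or 2, or mock replicate 2 or 3, with adjusted p from 0.0556 to 0.18 (edgeR). The 1 call among 48 assembly factors lies below the share over all genes. Of 14 tested genes of glycolysis and lactate, the aldolase Aldoa alone was called, at −0.30 ± 0.07 (edgeR adjusted p = 0.00372), and 1 call in 14 is about what that share gives.

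The ribosomal protein genes stood on the other side. Of 75 tested cytosolic ribosomal protein genes, 13 were called higher with TGFβ on average and 0 lower, beside 5.08% of all genes called in either direction, with a median log2 fold change of 0.23 and 70 of 75 positive; Rps2, a protein of the small subunit, rose by 0.44 ± 0.07 (edgeR adjusted p = 3e-05). With 1 library left out the count of 13 ran from 4, without labelled Nnmt-OE replicate 1, to 17, without mock with TGFβ replicate 3. The other counts below 9 were 8 without labelled Nnmt-OE with TGFβ replicate 2 or 3 or mock with TGFβ replicate 1, 7 without labelled Nnmt-OE replicate 3, and 6 without mock with TGFβ replicate 2 or mock replicate 2. Of 76 tested mitochondrial ribosomal protein genes 1 was called higher and 0 lower, below that share, with a median of 0.09 and 52 of 76 positive. The 80 nuclear oxidative phosphorylation members, with a median of −0.06 and 18 of 80 positive, are given beside these lists as a description, and the difference between lists was not tested.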

How the data were processed

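Gene counts came from 1 table of 12 libraries that the authors deposited as raw counts of 3′ tags per gene. The submitters' processing notes name the aligner STAR and the counter HTSeq without versions. They also name the human build GRCh38, although the identifiers are mouse. The annotation used and the strandedness chosen for counting were not given in the sources used here. Counts are of reads, with no molecular barcode named, and limits from counts cover counting error only. Of each library 26.4 to 28.79% of the table was reads outside genes and 0.6 to 0.68% ambiguous reads; these 5 HTSeq summary rows were left out. No count column was unused (0). Symbols and positions came from GENCODE M21 (GRCm38) for 55141 of 55487 identifiers (99.4%).

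The members and lists were chosen with earlier results of these data known. All 12 libraries were fitted together in edgeR 4.0.16 (R 4.3.3) with filterByExpr (minimum count 10, total 15), TMM scaling and robust quasi-likelihood tests, with Benjamini-Hochberg adjustment over all 12897 genes and calls at 0.05; every adjusted p without another tool named is from this fit. The residual degrees of freedom were 8 before moderation. CPM are TMM-scaled. The code was tested on simulated counts. Alternatives were RLE scaling, library totals, scaling without mitochondrial genes, DESeq2 1.42.0, limma-voom 3.58.1, other filters, a replicate block, fewer groups and left-out libraries. Named genes were the called members, the 2 highest of each nuclear complex, the 3 smallest p-values in each direction of the 4 simple comparisons, mitochondrial members, isoform pairs and the extremes of spread, with up to 4 genes of each neighbouring list; Atp5l, Atp5h, Ndufs3, Cox5a, Ndufb2, Atp5o, Uqcrb and Cox6c were named after their values were seen, and some genes that the rule names are not reported here. Copies were searched as 50-base words of the longest coding transcript, among annotated transcripts only. Promoters came from RefSeq (GRCm38.p6).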

Additional observations from a re-analysis of the deposited data

How the results depend on the processing

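For TGFβ averaged over constructs the 3 called members became 1 to 6 when 1 library was left out: 1, Ndufb8, without labelled Nnmt-OE with TGFβ replicate 2, labelled Nnmt-OE replicate 3, mock with TGFβ replicate 1 or mock replicate 3, and 6 without mock replicate 1. For TGFβ in mock the count of 0 became 1 (mt-Nd6) with DESeq2, limma-voom or no filter, and ranged from 0 to 1 with 1 library left out. For TGFβ in labelled Nnmt-OE the count of 0 became 1 (Ndufa1) with limma-voom or no filter, and ranged from 0 to 1 with 1 library left out. It became 2 (Ndufa1, Cox8a) with only the groups compared, and 2 (Ndufa1, Ndufv3) without the 3 libraries that stand apart. These are labelled Nnmt-OE with TGFβ replicate 3, mock with TGFβ replicate 3 and mock replicate 1, and values above set apart only the last. Over the tested members the first was lowest for 9 and highest for 2, and the second lowest for 14 and highest for 6. Labelled Nnmt-OE replicate 2, which was kept, was lowest for 2 and highest for 20, so fits without the 3 rest on that choice. For the construct without TGFβ and averaged over treatments, the count of 0 became 1 (Cox8a) with no filter. With the replicate block the counts were 0, 0, 0 and 0 in the 4 simple comparisons and 3 in the averaged TGFβ comparison, so no count changed. Same-numbered libraries of different groups did not deviate together (r from −0.087 to 0.044 over 18 pairs). Deviations from a mean of 3 libraries cannot show whether same-numbered libraries were handled together, and the labels do not say. With 1 library left out the nuclear median log2 fold change for TGFβ ran from −0.072 to 0.002 in mock and from −0.111 to −0.063 in labelled Nnmt-OE, and the mitochondrial median from −0.086 to 0.087 in mock for TGFβ and from −0.069 to 0.206 for the construct without TGFβ, where it was −0.067 without the 3 libraries that stand apart. Where mock replicate 1 was left out the cause is that library; elsewhere the cause was not tested. RLE scaling, library totals, scaling without mitochondrial genes and the stricter filter changed no count by over 1.5 times. Among named members in the simple comparisons 15 values became called. Among the 3 called members in the averaged comparison 14 values lost the call, and none that was called turned its direction. Members newly called in the averaged comparison are not in these counts. Values of named members that were not called changed sign 157 times in the simple comparisons. The largest was Ndufs5 for TGFβ in labelled Nnmt-OE, at −0.954, which became 0.125 without labelled Nnmt-OE replicate 2. For the neighbouring genes every alternative was added after seeing the data: Ppargc1a was called in mock with DESeq2 (0.0479), no filter (0.016), without mock replicate 1 or without the 3 libraries, the ribosomal count of 13 was 22 without them, and Higd1a was not called with the stricter filter (0.0502) or the replicate block (0.0612). In the other alternatives Ppargc1a was not called in mock, with an edgeR adjusted p of 0.373 without mock replicate 2 and 0.174 with only the groups compared. Over all genes, the 180 calls for TGFβ in labelled Nnmt-OE became 274 with DESeq2 and 351 with only the groups compared, and the 184 in mock became 284 and 92. Few counts stand behind Ndufs5 and Cox7a1, with 188 and 220 in all; how far depth sets their spread was not tested.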
